A study of Mus musculus with 6 samples.

Results

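Cytokines are secreted or cell-surface proteins through which immune cells instruct each other, and dendritic cells are among their main sources. The genes described here are Il12a and 9 other cytokine genes: Il1b, Il10, Il15, Il16, Il18, Tnf, Tnfsf10, Tnfsf13b and Tgfb1. Members were taken by gene symbol, through current symbols of the probes' Entrez identifiers, which gave 21 of the 45281 probes on the array and 10 of 19057 named genes. All 10 genes had a probe, and 9 of them, with 14 probes, passed the filter on dim probes and were tested among 9561 genes. Il10 was not tested.

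The study compared 2 populations sorted by flow cytometry from the bone marrow of female C57BL/6 mice aged 7 weeks: CCR9+ plasmacytoid dendritic cells (pDCs), and CCR9- pDC-like cells, which the labels call dendritic cell precursors and the series design common progenitors. CCR9 is a chemokine receptor. Each population had 3 Illumina BeadChip arrays, from isolations described as independent, and no treatment is named for either, so the cells were not labelled as stimulated. The sources used here do not say whether each isolation came from separate or pooled animals, so p-values measure the spread between these arrays. All differences below are the CCR9+ pDC mean minus the CCR9- precursor mean of normalized log2 signals, so positive values are higher in CCR9+ pDCs, and a gene was called at a limma adjusted p below 0.05.

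Between 15254 and 16905 probes per array were above background, the fewest on CCR9+ pDC replicate 3, and the mean correlation of an array with its own group was lowest there (r = 0.976 over genes, against 0.983 to 0.993 on the other arrays). Ccr9 RNA gave a signal at background throughout, so the sorting marker could not be checked. The defining pDC genes Tcf4, Siglech and Irf8 were above background on all 6 arrays. Of 10 pDC markers tested, 4 were higher in CCR9+ pDC arrays, 1 was lower and 5 did not pass, with a median log2 difference of 0.41. Those higher were Klk1 (4.59), Cd209d (2.13), Pacsin1 (1.00) and Siglech (0.50). Of 16 monocyte and macrophage markers tested, 15 were higher in CCR9+ pDC arrays and 0 lower, with a median log2 difference of 3.60 and C1qb, Mrc1 and Vcam1 in the lead, against a median of -0.02 over all genes tested. The summed signal of 17 such genes was 14.68 to 15.13 (log2) on CCR9+ pDC arrays and 10.98 to 11.25 on precursor arrays. Ms4a7, C1qa, Fcgr1 and Timd4 were not above background on any precursor array, and passed the filter only through the CCR9+ pDC arrays. Granulocyte markers (12 of 13) and basophil markers (7 of 7) were also higher in CCR9+ pDC arrays. Erythroid markers were higher for 4 of 6 genes, and B lineage and T and NK cell markers for 2 of 6 genes each. Conventional dendritic cell markers were higher for 4 of 8 genes and lower for 2. Leading that list were Zbtb46 (at least 3.88-fold higher in precursors), Itgax (log2 difference -1.27) and Cd209a (1.19). Zbtb46 was at background on every CCR9+ pDC array and passed the filter only through the precursor arrays. Over all genes tested, 17.6% were higher and 18.2% lower in CCR9+ pDCs.

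Several of these cytokines are stored or made as inactive precursors and need a further step before they signal. Il12a encodes p35, the chain that pairs with p40 (Il12b) to form interleukin 12 and with the Ebi3 product to form another cytokine of the family. Interleukins 1β and 18 are cut by caspase-1 in the inflammasome, TNF is shed from the membrane by ADAM17, and the furin protease cuts BAFF, the product of Tnfsf13b, and TGF-β1. Plasmacytoid dendritic cells are best known for type I interferon, and release TNF and other cytokines when their endosomal Toll-like receptors are engaged.

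The promoter stretches of 4 members are shown. Il12a, the member that was higher in precursors, is given from both of its annotated starts. Tnf and Il1b are also given, of which Il1b had the array profile closest to that of Tnf. Tnfsf13b is given from the start with a match to an interferon-type element, so this choice followed the motif search. The other Tnfsf13b start and the stretch of Il18, also a called member, held no motif match and are not shown. Each printed stretch is the 250 bases before an annotated start, 5′ to 3′ on the gene's strand, from RefSeq on GRCm38.p6, and capitals mark motif matches. The Il12a stretches are chr3:68690394-68690643 and chr3:68691174-68691423 on the plus strand, Il1b is chr2:129371140-129371389 and Tnf chr17:35202008-35202257 on the minus strand, and Tnfsf13b is chr8:10006383-10006632 on the plus strand.
Il12a, upstream start: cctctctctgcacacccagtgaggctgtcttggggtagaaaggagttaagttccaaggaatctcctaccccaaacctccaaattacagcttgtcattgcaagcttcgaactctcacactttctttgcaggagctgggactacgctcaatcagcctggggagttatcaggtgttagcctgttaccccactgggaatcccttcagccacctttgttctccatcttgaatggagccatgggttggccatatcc
Il12a, downstream start: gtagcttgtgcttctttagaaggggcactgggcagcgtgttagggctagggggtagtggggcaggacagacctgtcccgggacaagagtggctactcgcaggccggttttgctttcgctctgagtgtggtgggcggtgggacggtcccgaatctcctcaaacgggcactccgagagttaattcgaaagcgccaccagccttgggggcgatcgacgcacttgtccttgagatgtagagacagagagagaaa
Il1b: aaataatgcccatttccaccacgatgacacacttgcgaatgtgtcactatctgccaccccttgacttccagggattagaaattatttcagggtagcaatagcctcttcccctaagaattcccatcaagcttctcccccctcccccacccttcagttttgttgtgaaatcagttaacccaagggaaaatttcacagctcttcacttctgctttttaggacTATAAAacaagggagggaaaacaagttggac
Tnf: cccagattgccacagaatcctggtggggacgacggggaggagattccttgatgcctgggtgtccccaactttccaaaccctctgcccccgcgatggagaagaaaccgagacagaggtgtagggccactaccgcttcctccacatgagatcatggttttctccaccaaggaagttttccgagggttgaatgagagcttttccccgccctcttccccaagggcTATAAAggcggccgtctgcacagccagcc
Tnfsf13b: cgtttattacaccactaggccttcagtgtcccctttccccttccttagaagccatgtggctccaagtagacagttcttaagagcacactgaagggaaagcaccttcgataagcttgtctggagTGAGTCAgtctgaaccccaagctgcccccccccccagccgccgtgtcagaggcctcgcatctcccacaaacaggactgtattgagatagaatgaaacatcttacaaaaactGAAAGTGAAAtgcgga

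Of the 10 members, 8 had a promoter in the RefSeq table, with 12 starts in all, and Il10 and Il15 had no entry. Each stretch was searched for 6 motifs: the TATA box (TATAAA, on the gene's strand alone) and, on both strands, a κB site, an interferon-stimulated response element core, an AP-1 site (TGANTCA), a cyclic AMP response element (TGACGTCA) and a C/EBP core (TTGCGCAA). A TATA box match began 31 bases before the Il1b start and 29 bases before the Tnf start. TATAAA was in 2 of the 12 member stretches and in 7.59% of 32851 promoters. The interferon-stimulated element core matched, as GAAAGTGAAA, 16 bases before the second Tnfsf13b start. Its pattern with N was in 1 of the 12 stretches and in 2.98% of all promoters. An AP-1 match lay 127 bases before the same start, and another 18 bases before one Il16 start (6.75% of all promoters). The κB pattern matched, as GGGAATTTCC, 49 bases before another Il16 start (0.98% of all promoters). The cyclic AMP response element and the C/EBP core, in 1.55% and 0.164% of all promoters, were in 0 of the 12. No motif matched either Il12a stretch, which says only that these letters are not in these windows.

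The members did not move together. Of the 9 tested, 5 were higher in CCR9+ pDCs (Tnf, Il18, Il15, Il1b and Tnfsf13b), 1 was lower (Il12a) and 3 did not pass (Tnfsf10, Il16 and Tgfb1). Over all genes 35.8% were called, 17.6% higher and 18.2% lower in CCR9+ pDCs. The members' median log2 difference was 1.54, against -0.02 over all genes tested. On normalized values the groups did not overlap for 7 of the 9 members, against 50.9% of all genes. In RNA from sorted populations, fewer cells of a type that express a gene and less RNA per cell cannot be told apart.

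**Figure D1:**
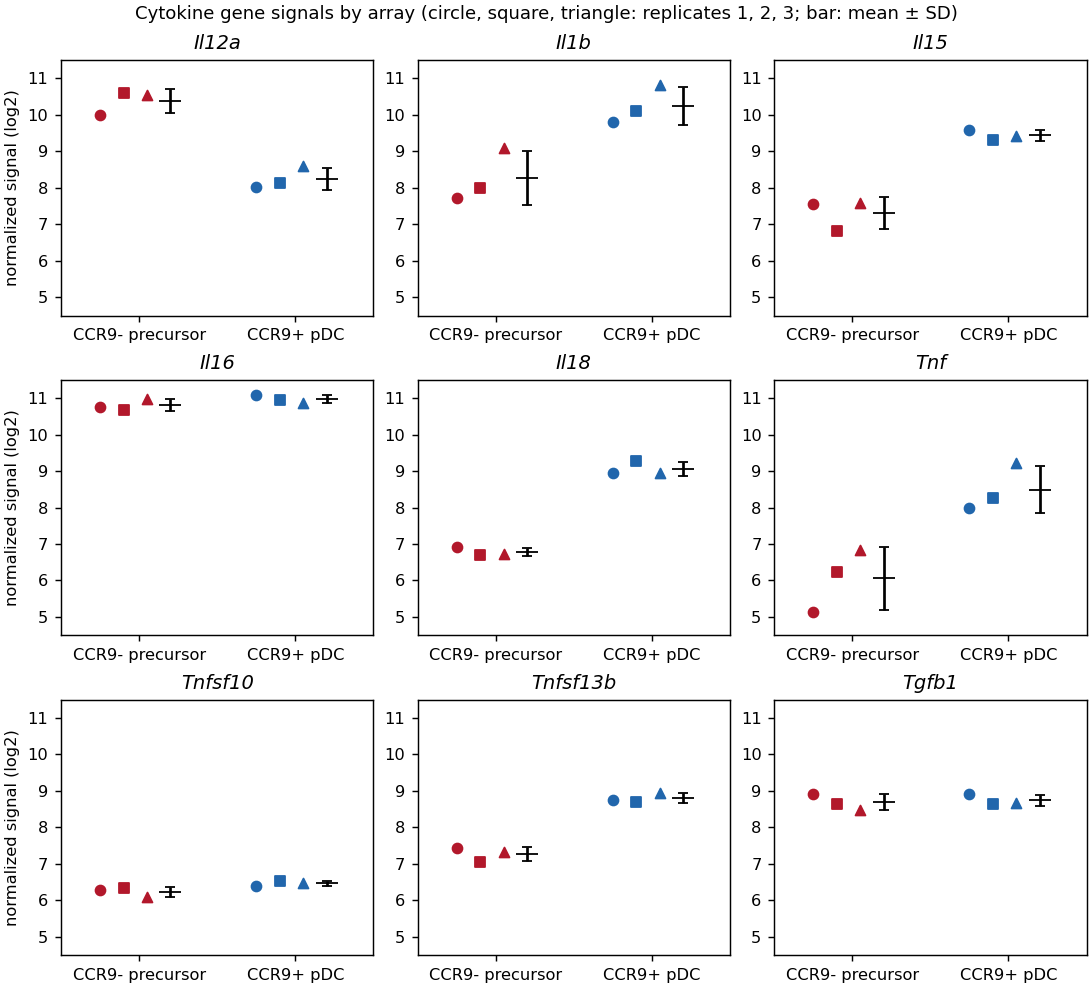
Normalized signal (log2, vertical axis) of the 9 tested cytokine genes on each array, with precursors in red and CCR9+ pDCs in blue, symbols for replicates 1 to 3 and a bar for the mean ± SD. Il12a sat above 10 in all 3 precursor arrays and below 8.6 in all 3 CCR9+ pDC arrays, and Tnf, Il18, Il15, Il1b and Tnfsf13b lay the other way round.

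Il12a was the 1 member higher in precursors. Its single probe had non-normalized signals of 1320, 1735 and 1749 on the precursor arrays, and of 366.3, 398.6 and 439.1 on the CCR9+ pDC arrays. Every precursor array was thus well above every CCR9+ pDC array, and the probe was above background on all 6. The normalized arrays read 10.01, 10.59 and 10.54 in precursors (mean 10.38 ± 0.32, SD) and 8.02, 8.13 and 8.59 in CCR9+ pDCs (mean 8.25 ± 0.30), a 4.38-fold higher mean in precursors. The log2 difference of -2.13 had a 95% interval from -2.64 to -1.62 (limma adjusted p = 0.000415). In size it exceeded 96.8% of the differences of all genes tested.

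Of the other chains of the interleukin 12 family, Ebi3 alone gave a signal above background here. Il23a (p19 of interleukin 23) and Il27 (p28, a partner of the Ebi3 product) were not above background on any array, and Il12b was not analysed here. Ebi3, which encodes a partner of both p28 and p35, was above background on all arrays and moved opposite to Il12a: 10.05, 9.91 and 9.94 on CCR9+ pDC arrays against 9.42, 9.16 and 9.24 on precursor arrays (log2). The groups did not overlap, and the difference of 0.70 was called (limma adjusted p = 0.00265), but not under median scaling (0.102). The receptor chain Il12rb2 had a difference of -0.45 (limma adjusted p = 0.214), and Il12rb1 was not above background.

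The genes whose profile over the 6 arrays lay closest to Il12a, by Euclidean distance between log2 profiles centred on each gene's mean, were Tpx2 (distance 0.40), Mcm7 (0.41), Ndc80 (0.41), Cenpn (0.43) and H3c3 (0.47). Tpx2 encodes a spindle assembly factor, Mcm7 a subunit of the replicative helicase, Ndc80 a kinetochore protein, Cenpn a centromere protein and H3c3 a histone H3. Their log2 differences ran from -1.90 to -2.11, next to -2.13 for Il12a. H3c3 belongs to a family of near-identical paralogs, and its probe cannot be assumed to separate them. These genes were picked for their likeness to Il12a, so the likeness is a description.

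Tnf encodes the membrane-anchored and shed cytokine TNF. The brighter of its 2 probes read 7.98, 8.27 and 9.21 on the CCR9+ pDC arrays and 5.13, 6.23 and 6.83 on the precursor arrays (log2). The lowest of these, precursor replicate 1, was at background (Illumina detection probability 0.199), so the fitted fold rests partly on a signal at background. Even so, the highest precursor array stayed below the lowest CCR9+ pDC array. The difference was 2.42 (95% interval 1.25 to 3.59, limma adjusted p = 0.00913), a 5.35-fold higher mean in CCR9+ pDCs. The second Tnf probe was above background on all 6 arrays and differed by 2.39 (adjusted p = 0.00213 in the limma fit over all probes).

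Il1b encodes interleukin 1β, the pyrogenic cytokine released after inflammasome activation. It read 9.81, 10.09 and 10.81 on CCR9+ pDC arrays and 7.71, 7.99 and 9.10 on precursor arrays (log2). Precursor replicate 3 came closest to the CCR9+ pDC group but did not reach it. The mean was 3.91-fold higher in CCR9+ pDCs (log2 difference 1.97, 95% interval 0.99 to 2.95, limma adjusted p = 0.0103). Of all tested genes, Il1b had the profile closest to Tnf (distance 0.82, n = 6 arrays). Next were the chemokine gene Ccl3 (0.89), the leukocyte receptor gene Lilr4b (0.92), the ribonuclease gene Ear3 (0.99) and Nfkbiz, a nuclear IκB gene (0.99). Ear3 has close paralogs that its probe may not separate.

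Tnf and Il1b had the widest spread of the members. Their SDs were 0.64 and 0.51 in CCR9+ pDCs and 0.86 and 0.73 in precursors, whereas no other member exceeded 0.44 in either group. In both groups replicate 3 was the highest and replicate 1 the lowest for both genes. Immediate early genes, whose transcription responds within minutes to handling or stimulation, varied in the same arrays. The summed signal of 12 of them was 13.98, 15.09 and 15.59 (log2) on CCR9+ pDC replicates 1, 2 and 3. On precursor replicates 1, 2 and 3 it was 13.18, 14.35 and 15.27 (log2). Among the tested genes of this list, Ier2 alone ran the other way, highest on replicate 1 and lowest on replicate 3 in both groups. Of 11 immediate early genes tested, 1 was higher in CCR9+ pDCs (Ier3, log2 difference 1.46, limma adjusted p = 0.00547), 0 were lower and 10 did not pass. Over all genes, 17.6% were higher and 18.2% lower. The median log2 difference of the immediate early genes was 0.91, against -0.02 over all genes tested. Both arrays numbered 3 were left out in an alternative added after the data had been seen. The differences were then 2.49 for Tnf and 2.09 for Il1b, and both were called (limma adjusted p = 0.0107 and 0.00141). On replicates 1 and 2 the summed immediate early signal was also higher in CCR9+ pDCs. This alternative therefore cannot separate immediate early signals from those of Tnf and Il1b. The part of immediate early signals in the level of either gene was not tested.

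**Figure D2:**
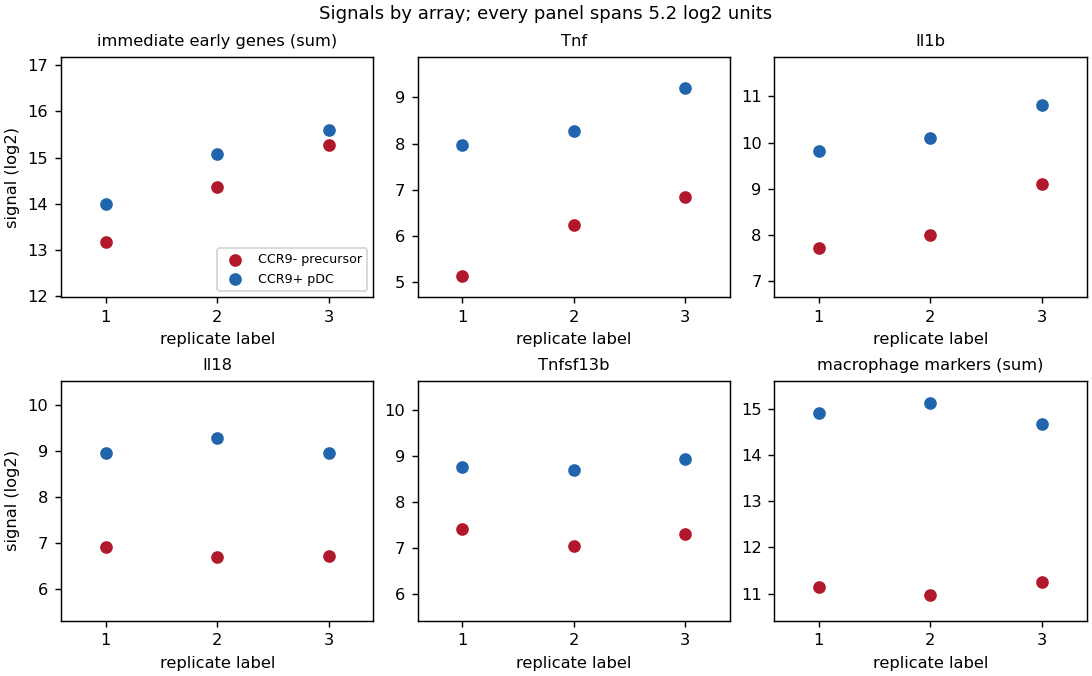
Signals (log2, vertical axis) by replicate label (horizontal axis) for the summed immediate early genes, Tnf, Il1b, Il18, Tnfsf13b and the summed macrophage markers, with CCR9+ pDC arrays in blue and precursor arrays in red. Tnf, Il1b and the summed immediate early genes were lowest on replicate 1 and highest on replicate 3 in both groups. CCR9+ pDC arrays were above precursor arrays of the same number in every panel.

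Il18 encodes interleukin 18, an inducer of interferon γ in natural killer and T cells. Its detected probe read 8.96, 9.27 and 8.94 on CCR9+ pDC arrays and 6.90, 6.70 and 6.73 on precursor arrays (log2). The arrays of each group lay close together and the groups were far apart. The means, 9.06 ± 0.18 and 6.78 ± 0.11 (log2, SD, n = 3), differed 4.85-fold (log2 difference 2.28, 95% interval 1.98 to 2.58), with the lowest adjusted p of the members (limma, 3.29e-05). A second Il18 probe, designed on another transcript record, was not above background on any array.

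Il15 encodes interleukin 15, which is presented by dendritic cells and macrophages on its own receptor chain to natural killer and memory T cells. The brightest of its 5 probes read 9.59, 9.31 and 9.41 on CCR9+ pDC arrays and 7.55, 6.81 and 7.59 on precursor arrays (log2). The groups did not overlap, and the mean was 4.34-fold higher in CCR9+ pDCs (log2 difference 2.12, 95% interval 1.58 to 2.65, limma adjusted p = 0.000526). Its probes did not all give the same result. A second probe differed by 1.77 and was called (adjusted p = 0.000284, limma over all probes), while a dimmer probe, above background on all 6 arrays, differed by 0.31 with overlapping groups (adjusted p = 0.231), and 2 probes were not above background on any array. With the mean of the 3 kept probes the difference was 1.40. Il15ra, the presenting receptor chain, was also higher in CCR9+ pDCs (log2 difference 0.93, limma adjusted p = 0.000893). The probe behind this value was not above background on any precursor array. It passed the filter only through the CCR9+ pDC arrays, so this p-value is no independent support.

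Tnfsf13b encodes BAFF, a survival factor for B cells. It read 8.76, 8.70 and 8.94 on CCR9+ pDC arrays and 7.42, 7.04 and 7.31 on precursor arrays (log2), again without overlap. The mean was 2.91-fold higher in CCR9+ pDCs (log2 difference 1.54, 95% interval 1.23 to 1.86, limma adjusted p = 0.000204). The other probe above background gave the same difference of 1.54. Among BAFF receptors, Tnfrsf13b (TACI) was higher in CCR9+ pDCs by 1.02 (limma adjusted p = 0.000371), Tnfrsf13c (BAFF-R) differed by -0.22 (0.368), and Tnfrsf17 (BCMA) was not above background.

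The 5 members that were higher in CCR9+ pDCs are all genes that monocytes and macrophages also express. The markers of those cells, given above, were higher in the same arrays. Among CCR9+ pDC arrays, the summed macrophage markers were highest on replicate 2 (15.13) and lowest on replicate 3 (14.68). Tnf, Il1b and Tnfsf13b were highest on replicate 3, Il18 on replicate 2 and Il15 on replicate 1. This order within 1 group does not bear on the difference between the groups. The part of macrophage RNA in these cytokine signals was not tested.

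**Figure D3:**
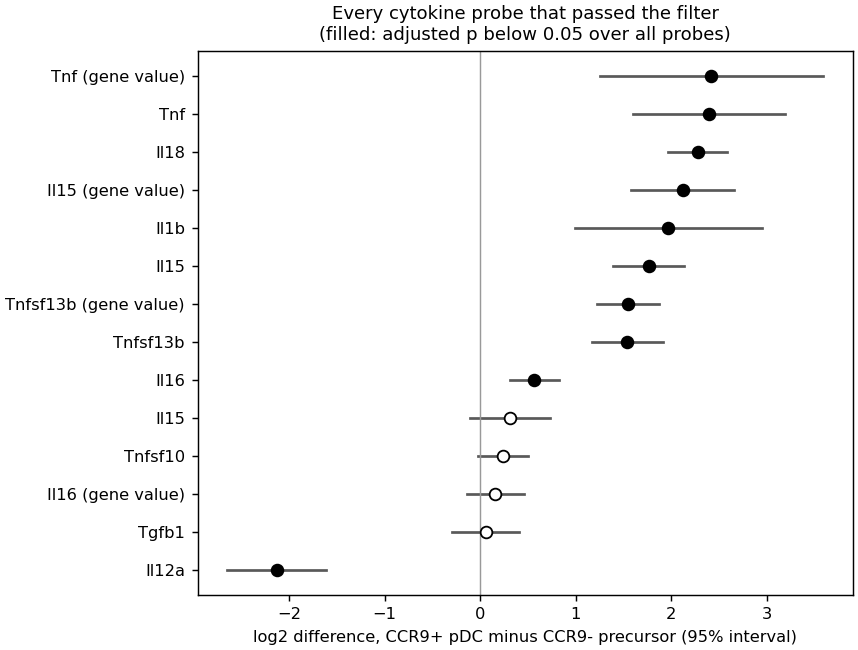
Log2 difference (CCR9+ pDC minus precursor, horizontal axis) of the 14 cytokine probes that passed the filter, with 95% intervals; filled points were called over all probes, and the label names the probe used as the gene's value where a gene had more than 1. Both Tnf probes and both Tnfsf13b probes gave like differences, whereas 1 of 3 Il15 probes and 1 of 2 Il16 probes fell on the other side of the threshold from the rest.

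Il16 encodes a chemoattractant that acts through CD4. The brightest probe gave signals of 11.08, 10.95 and 10.86 on CCR9+ pDC arrays and 10.75, 10.67 and 10.99 on precursor arrays (log2), and the groups overlapped. The difference was 0.16 (95% interval -0.13 to 0.44, limma adjusted p = 0.346), and it was -0.09 under median scaling. A dimmer probe with non-overlapping groups differed by 0.57 (adjusted p = 0.00755, limma over all probes), and with the mean of both probes Il16 was called (0.36, limma adjusted p = 0.0363). The Il16 result therefore depends on the probe. Cd4, its receptor gene, stayed at background on every precursor array, and CCR9+ pDCs exceeded that level at least 2.97-fold (limma adjusted p = 0.000250). Cd4 passed the filter only through the CCR9+ pDC arrays, so this p-value is no independent support.

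Tnfsf10 encodes TRAIL, a death ligand that human pDCs can display after activation. It gave low signals, 6.40, 6.54 and 6.47 on CCR9+ pDC arrays and 6.28, 6.33 and 6.08 on precursor arrays (log2). These normalized values did not overlap between groups. The non-normalized signals did, at 194.6, 214.8 and 212.4 in CCR9+ pDCs and 207.0, 210.4 and 205.9 in precursors. A second Tnfsf10 probe was not above background on any array. The difference of 0.24 did not pass (95% interval -0.01 to 0.49, limma adjusted p = 0.123). The TRAIL receptor gene Tnfrsf10b differed by -0.15 (limma adjusted p = 0.429).

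Tgfb1 encodes TGF-β1, a suppressive and differentiation-directing cytokine. It read 8.91, 8.65 and 8.66 on CCR9+ pDC arrays and 8.92, 8.65 and 8.48 on precursor arrays (log2), with overlapping groups. The difference was 0.06 (95% interval -0.29 to 0.40, limma adjusted p = 0.785) and became -0.20 under median scaling, which left it uncalled. All 3 TGF-β receptor genes were higher in CCR9+ pDCs, Tgfbr2 by 1.93 (limma adjusted p = 3.12e-05), Tgfbr3 by 0.81 (0.00436) and Tgfbr1 by 0.63 (0.00170).

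Il10, which encodes the suppressive cytokine interleukin 10, had non-normalized signals between 127.7 and 168.0 over the 6 arrays, close to the array medians of 135.9 to 163.6. Its probe was above background on CCR9+ pDC replicate 2 alone (Illumina detection probability 0.0406). A level of Il10 in either population was therefore not measurable at this signal, and no fold is given. Both interleukin 10 receptor genes were measured, with Il10rb higher in CCR9+ pDCs by 0.58 (limma adjusted p = 0.00834) and Il10ra by 0.62 (0.0305). The Il10rb call was lost under median scaling (0.160), and the Il10ra call without CCR9+ pDC replicate 1 or 2 or any 1 of the 3 precursor arrays (0.0628 to 0.0949), and under median scaling (0.261).

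**Figure D4:**
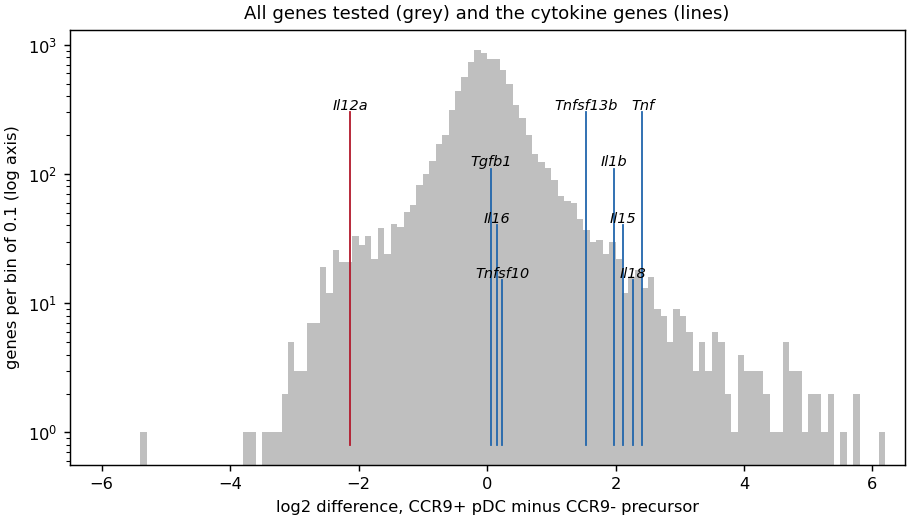
Number of genes (vertical axis, log scale, bins of 0.1) by log2 difference between CCR9+ pDCs and precursors (horizontal axis) for the 9561 genes tested, with lines at the 9 cytokine genes. Il12a lies at -2.13 in the left tail, 5 members lie between 1.54 and 2.42, and Tnfsf10, Il16 and Tgfb1 lie within 0.24 of 0.

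Across receptors of the members, 9 of 17 genes tested were higher in CCR9+ pDCs and 0 were lower, beside 17.6% higher and 18.2% lower over all genes. The median log2 difference was 0.62. The 9 include Cd4 and Il15ra, whose probes passed the filter only through the CCR9+ pDC arrays. Tnfrsf1b, the second TNF receptor, was higher by 1.92 (limma adjusted p = 0.000371), or by 1.02 with the mean of its probes (0.000864), while Tnfrsf1a, the first, was above background on 1 CCR9+ pDC array and 2 precursor arrays and differed by -0.13 (0.681). The interleukin 18 receptor chain Il18r1 differed by -0.47 (limma adjusted p = 0.0672), and the interleukin 1 receptor chain Il1rap by -0.27 (0.126). Il18r1 passed without CCR9+ pDC replicate 3 (limma adjusted p = 0.0155), under median scaling (0.0161) and under cyclic loess (0.0483), each time lower in CCR9+ pDCs, and Il1rap passed with the mean of its probes (-0.36, 0.0488). In the list of decoys and feedback inhibitors, 1 of 5 genes tested was called, beside 35.8% of all genes. It was Socs3, higher in CCR9+ pDCs by 2.28 (limma adjusted p = 0.000250). Socs3 encodes an inhibitor of cytokine signalling through STAT3.

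Of 16 genes tested that cut, activate or release these cytokines, 5 were higher in CCR9+ pDCs, 2 were lower and 9 did not pass, with a median of 0.12, so that the called share was near the 35.8% of all genes called. Casp1, which encodes caspase-1, was higher by 0.56 (limma adjusted p = 0.00786), and Casp4, which encodes the murine caspase-11, by 1.38 (0.000235). Pycard, which encodes the inflammasome adaptor ASC, was lower in CCR9+ pDCs by a difference of -0.65 (limma adjusted p = 0.00681), and the sensor gene Nlrp3 was not above background. Furin was higher by 0.45 (limma adjusted p = 0.00695), whereas Adam17 differed by 0.01 (95% interval -0.19 to 0.22, 0.911), and by -0.25 under median scaling. Under median scaling the Casp1 and Furin calls were lost (limma adjusted p = 0.129 and 0.317). Rhbdf1, a rhomboid-like protein that traffics ADAM17, was higher by 1.15 (limma adjusted p = 0.00423).

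**Figure D5:**
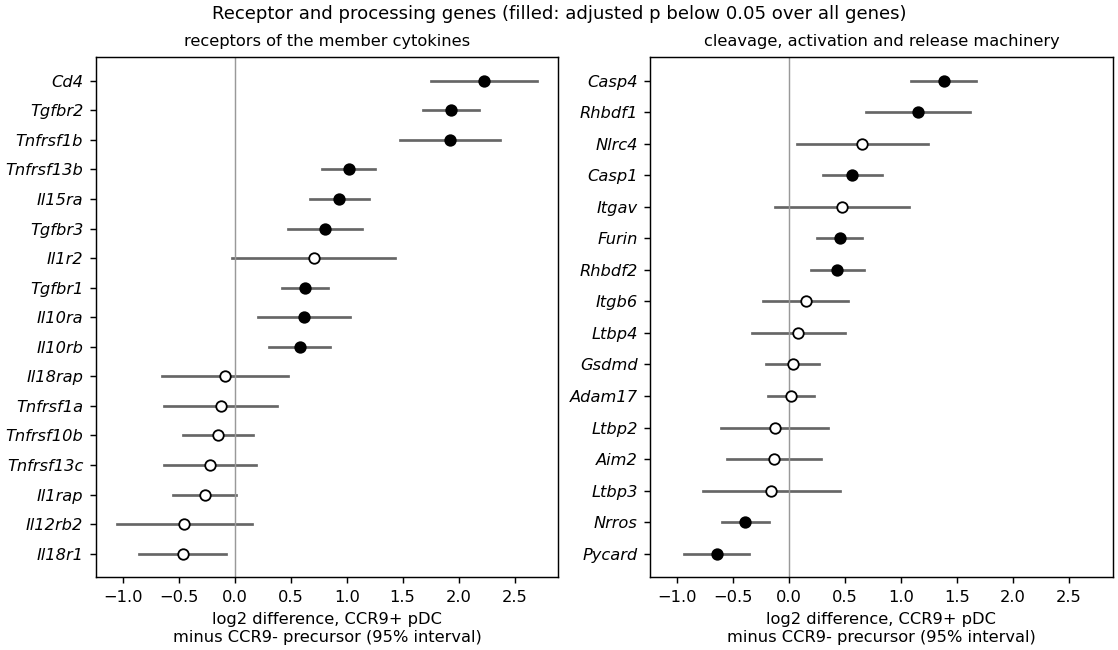
Log2 difference (CCR9+ pDC minus precursor, horizontal axis) with 95% intervals for tested receptor genes (left) and cleavage and release genes (right); filled points were called over all genes. The 9 called receptor genes all lay to the right of 0, and for Cd4 and Il15ra the probe was not above background in precursors, so the point is a fitted value and not a bound.

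Genes listed for AU-rich element binding or for the decay of cytokine messages went both ways, with 3 of 13 higher in CCR9+ pDCs and 2 lower. Their median was -0.01, and the called share was near the 35.8% of all genes. Zfp36l1 was higher by 1.06 (limma adjusted p = 0.0118) and Khsrp lower by a difference of -1.25 (0.0119). Zc3h12d was higher by 0.72 and Zc3h12c by 0.51, both ribonuclease-family genes, and neither call held under median scaling (limma adjusted p = 0.0792 and 0.0540). The Zc3h12c call was also lost without background correction (0.0667) and with an intensity trend and robust prior (0.0556).

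Most other cytokine genes gave no measurable signal. Of 30 further interleukin, interferon and growth factor genes, 23 had no probe above background on any array, Il6, Ifnb1, Ifng and Csf2 among them, and 4 could be tested. Il4 was the 1 called, at background on every precursor array, with a CCR9+ pDC signal at least 1.39-fold higher (limma adjusted p = 0.0167). Its probe passed the filter only through the CCR9+ pDC arrays, so this p-value is no independent support. With any CCR9+ pDC array left out, Il4 failed the filter and was not tested. Leaving out precursor replicate 2 or 3 also removed the Il4 call (limma adjusted p = 0.0505 and 0.0531). Among 16 TNF superfamily ligand genes on the array, 10 had no probe above background, and 6 were tested. Tnfsf9, the 4-1BB ligand gene, stayed at background in CCR9+ pDCs and was higher in precursors by at least 1.53-fold (limma adjusted p = 0.0125). It thus shared its direction with Il12a and not with Tnf and Tnfsf13b. Tnfsf9 passed the filter only through the precursor arrays, so its p-value is no independent support. Of 3 TGF-β family ligand genes tested, Inhba (activin A) and Gdf3 were higher in CCR9+ pDCs, by 1.09 and 0.80 (limma adjusted p = 0.00634 and 0.0125). Beside these lists, 35.8% of all genes tested were called, 17.6% higher and 18.2% lower in CCR9+ pDCs.

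The sizes of the members' differences depended on the background correction. Without it, the log2 differences were -1.76 for Il12a, 1.60 for Il1b, 1.51 for Il15, 1.48 for Il18, 1.32 for Tnf and 1.03 for Tnfsf13b, and with the authors' processed values -1.71, 1.64, 1.52, 1.49, 1.36 and 1.04 in the same order. All 6 were called in both.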

How the data were processed

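Total RNA was measured on single-colour Illumina arrays, 3 per population. Per the file headers, the deposited non-normalized table pairs each array's linear probe intensity with a detection p-value. A second deposited table holds processed linear intensity, with no normalization stated. BeadStudio and lumi are named in the submitters' processing notes. The processed table served as an alternative (rank correlation with the non-normalized table of at least 0.9997).

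Intensities were background-corrected from the detection p-values with limma's neqc (offset 16), quantile-normalized and log2-transformed (limma 3.58.1 in R 4.3.3). Probes with a detection p below 0.05 on at least 3 arrays and 1 gene symbol were kept (14282 of 34885). The brightest kept probe stood for its gene. Differences were fitted with lmFit and eBayes over 9561 genes, with no block, and Benjamini-Hochberg adjustment; every kept probe was also fitted. Where no probe of a gene was above background in 1 group, the fold is a lower bound, set against the higher of the lowest signal of a detected probe and the probe's own on each array. The fit was tested on simulated data.

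The members and lists were chosen with earlier results of these data known. Named were all members, fixed partner and processing genes, up to 4 called genes per list, members' receptors, leading markers and the 5 nearest profiles of Il12a and Tnf. Other names (4 macrophage markers absent in precursors, 3 pDC genes, and Il6, Ifnb1, Ifng, Csf2 and Nlrp3) were chosen after their values were seen. The number of arrays limits the precision.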

Additional observations from a re-analysis of the deposited data

How the results depend on the processing

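In 17 alternatives, 1 of them chosen after seeing the data (without both arrays numbered 3), the 6 called members kept their direction and their calls. The alternatives changed the background correction, normalization, value table, filter, variance model, probe rule or block, or left out 1 array. Member genes called numbered 6 in every alternative except the mean of probes, with 7 (Il16 added), and member probes called numbered 9 or 10. Leaving out each array in turn gave 6 member genes and 2368 to 3436 called genes in all. Adjusted p-values of the called members ranged up to 0.0436 (Il1b, limma). With the replicate block, limma called 6 members and 3361 genes (3420 without); every member's call was the same with it, and Il10ra was lost (adjusted p = 0.0590). Deviations of same-numbered arrays from their group means correlated at 0.35, 0.044 and 0.24, not all above the other pairs, so the numbers were not taken as pairs. Under median scaling the median difference of all genes moved from -0.02 to -0.19, and calls split into 986 higher and 2124 lower in CCR9+ pDCs (31.7% higher, against 49.2%). Of the genes near Tnf, Nfkbiz lost its call in 5 alternatives (adjusted p = 0.0518 to 0.0760). Signal over background limits Il10, 7 member probes that were not kept, and the size of the Tnf difference.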
